A study of Mus musculus with 6 samples.

Results

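This account concerns 35 cell cycle and DNA replication genes in endothelial cells (ECs) of the mouse spinal cord, 22 of them genes of mitosis and cytokinesis and 13 of them genes of DNA replication. The genes were taken by symbol from a count table of 56748 genes, and all 35 had a row in it. ECs were sorted by flow cytometry from spinal cords on postnatal day 16 (P16) and sequenced in bulk, with 3 libraries of control and 3 of *TDP-43iΔEC* mice, numbered 1 to 3 in each group. The labels do not say whether a library holds ECs of 1 mouse or of a pool. Control mice carried *Tardbpflox*, a *Tardbp* allele with loxP sites around an exon (homozygous in the study's naming of both groups), on a C57BL/6 background, with no Cre in their labelled genotype. *TDP-43iΔEC* mice carried the same allele with *Cdh5(PAC)-CreERT2*, a tamoxifen-dependent Cre recombinase driven by the promoter of the endothelial cadherin gene *Cdh5*, so that deletion is directed to ECs. Both groups received tamoxifen from a 1 mg/mL solution on P5 to P7, so both share the floxed allele and the drug, and an effect of Cre itself cannot be told apart from loss of *Tardbp*.

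A dividing cell first copies its DNA and then separates the copies. In G1, cyclin D with CDK4 or CDK6 and cyclin E with CDK2 relieve the block that RB proteins place on E2F transcription factors, and E2F targets such as the MCM helicase genes are then transcribed. Genes of G2 and mitosis, among them *Cdk1* and the B-type cyclin genes, are transcribed later under the MuvB complex with B-MYB and FOXM1, through a promoter element called the cell cycle genes homology region (CHR), often beside CCAAT boxes bound by NF-Y. Most ECs of mature vessels are quiescent, and vessels still growing after birth hold cycling ECs.

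The promoters of the mitosis genes shared sequence features that the choice of genes did not use. Promoter windows of 250 bases before and 50 bases after the annotated start were found for 28 of the 35 genes in a RefSeq table of the GRCm38.p6 assembly, leaving *Ccna2*, *Aurkb*, *Kif20a*, *Tpx2*, *Mcm4*, *Ccne2* and *Gins2* without one. The stretches below are the 100 bases before the start of 5 mitosis genes whose *TDP-43iΔEC* libraries all lay above the control libraries and, for contrast, of *Mcm6*, a replication gene whose groups had like levels. Such mitosis genes numbered 9, and the 5 printed all hold a CHR in these bases. Of the others, *Tpx2* had no window and *Birc5* held no match in its 100 bases. *Kif23* and *Cenpe* held a CCAAT box there and no CHR. Each is printed 5′ to 3′ on the strand of the gene. Capitals mark matches to a CHR (TTTGAA or TTTAAA), to a CCAAT box (CCAAT) or to an E2F motif (TTCCCGC, TTTGGCGC, TTTCGCGC or TTCGCGC) on either strand.
*Cdk1*, minus strand, chr10:69352913-69353012: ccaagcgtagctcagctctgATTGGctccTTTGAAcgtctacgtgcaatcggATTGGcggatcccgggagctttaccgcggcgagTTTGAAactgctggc
*Ccnb1*, minus strand, chr13:100786487-100786586: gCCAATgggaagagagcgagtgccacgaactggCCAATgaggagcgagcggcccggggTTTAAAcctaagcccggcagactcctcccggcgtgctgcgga
*Top2a*, minus strand, chr11:99024190-99024289: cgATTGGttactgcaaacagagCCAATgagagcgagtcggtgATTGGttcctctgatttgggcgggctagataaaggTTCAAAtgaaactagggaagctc
*Prc1*, downstream of 2 annotated starts, plus strand, chr7:80294376-80294475: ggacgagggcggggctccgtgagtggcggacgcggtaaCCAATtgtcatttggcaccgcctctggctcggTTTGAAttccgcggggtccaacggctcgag
*Mki67*, minus strand, chr7:135716380-135716479: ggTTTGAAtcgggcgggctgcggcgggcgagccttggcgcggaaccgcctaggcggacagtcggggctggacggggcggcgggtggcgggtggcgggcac
*Mcm6*, minus strand, chr1:128359706-128359805: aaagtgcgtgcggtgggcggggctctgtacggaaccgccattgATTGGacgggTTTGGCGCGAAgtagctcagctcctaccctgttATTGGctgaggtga

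In these stretches, *Cdk1*, *Ccnb1*, *Top2a* and *Prc1* hold a CHR downstream of at least 1 CCAAT box, and *Mki67* holds a CHR near the far end of the stretch. *Mcm6* holds 2 overlapping E2F matches and 2 CCAAT boxes and no CHR. Over the whole windows, a CHR match was present in 16 of 18 mitosis genes, 88.9% (95% Wilson interval 67.2 to 96.9), and in 4 of 10 replication genes, 40% (16.8 to 68.7), while 30.6% of the 27025 genes in the promoter table and 22.8% of the 9470 genes tested with a window held it. A CCAAT box was present in 16 of 18 mitosis genes and 7 of 10 replication genes, with 41.1% of all genes and 43.5% of genes tested holding it. An E2F match was found in 5 of 10 replication genes, *Mcm3*, *Mcm5*, *Mcm6*, *Mcm7* and *Cdc6*, in 1 of 18 mitosis genes, *Cdk1*, in 7.33% of all genes and in 13.7% of genes tested. A CHR and a CCAAT box together were present in 83.3% of mitosis genes, 30% of replication genes, 12.2% of all genes and 9.23% of genes tested. TTTAAA reads the same on both strands, and TTTCGCGC holds TTCGCGC, so that some matches overlap. A match is a run of letters and not evidence of binding, and the intervals cover counting error only.

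Libraries held 25704871 to 47270654 counts in genes, and the *TDP-43iΔEC* 2 and 3 libraries were the smallest, at 28228980 and 25704871 counts. *Tardbp* had 55.3, 61.9 and 58.5 CPM (counts scaled to a common library size) in control libraries 1, 2 and 3 and 26.6, 16.1 and 11.8 CPM in *TDP-43iΔEC* libraries 1, 2 and 3, without overlap, which matches the labels. Its log2 fold change in limma was -1.62 (SE 0.41, adjusted p = 0.287). All 7 endothelial markers (*Pecam1*, *Cldn5*, *Kdr*, *Flt1*, *Vwf*, *Cdh5*, *Tie1*) were detected in every library, with summed levels of 9312 to 13673 CPM. *Flt1* (means of 1891 CPM in controls and 1166 CPM in *TDP-43iΔEC* mice) and *Kdr* (940 and 778 CPM) were lower in every *TDP-43iΔEC* library. Over all genes tested 7.93% were lower in that way, and the other endothelial markers overlapped between groups. The control 2 library stood apart, with 12972 genes detected against 14103 to 16557 in the others and 16.0% of the 13107 genes tested at a count of 0 against 1.88 to 9.03%. The counts, sums and medians over gene lists are therefore given with and without it.

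No cell cycle or replication gene passed the threshold of an adjusted p of 0.05 in limma, the test the study used, in which 18 of 13107 genes (0.137%) passed. At an unadjusted p under 0.05, 6 of the 34 genes tested were higher in *TDP-43iΔEC* ECs and 0 were lower, against 4.26% of all genes tested that were higher at that p. These were *Cenpe*, *Plk1*, *Prc1*, *Cdk1*, *Tpx2* and *Kif23*, all of mitosis, and the lowest adjusted p was 0.395 (*Cenpe*). edgeR's quasi-likelihood test passed 0 of the genes (2 higher at an unadjusted p under 0.05, against 2.72% of all genes tested). DESeq2 passed 1, *Top2a* (adjusted p = 0.0118), against 1.91% of all genes tested, and 8 were higher at an unadjusted p under 0.05, against 4.21%. Without control 2, limma had 5 genes higher at an unadjusted p under 0.05 and 0 lower, against 2.69% and 6.46% of all genes tested. Counted by library, 13 of the 35 genes had every *TDP-43iΔEC* library above every control library and 0 had every one below, against 7.40% and 7.93% of all genes tested. Without the control 2 library that count was 15 of 35, against 10.4% of all genes tested. For any 1 gene, 3 libraries a group allow a two-sided exact permutation p of 0.1 at the smallest.

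The mitosis genes had the wider separation. Their summed level was 164, 21.8 and 140 CPM in control libraries 1, 2 and 3 and 317, 752 and 424 CPM in *TDP-43iΔEC* libraries 1, 2 and 3. The groups did not overlap, control 2 lay lowest and *TDP-43iΔEC* 2 highest. In bulk libraries, more cycling cells and more RNA per cycling cell cannot be told apart. Means were 108 ± 76.0 CPM and 497 ± 227 CPM (SD, n = 3 each), a ratio of 4.59, which was 3.28 without control 2 and 2.44 without both control 2 and *TDP-43iΔEC* 2. The replication genes summed to 242, 174 and 239 CPM in control mice and to 230, 414 and 358 CPM in *TDP-43iΔEC* mice. Here *TDP-43iΔEC* 1 lay inside the control range and the ratio of means was 1.53, or 1.39 without control 2.

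**Figure D1:**
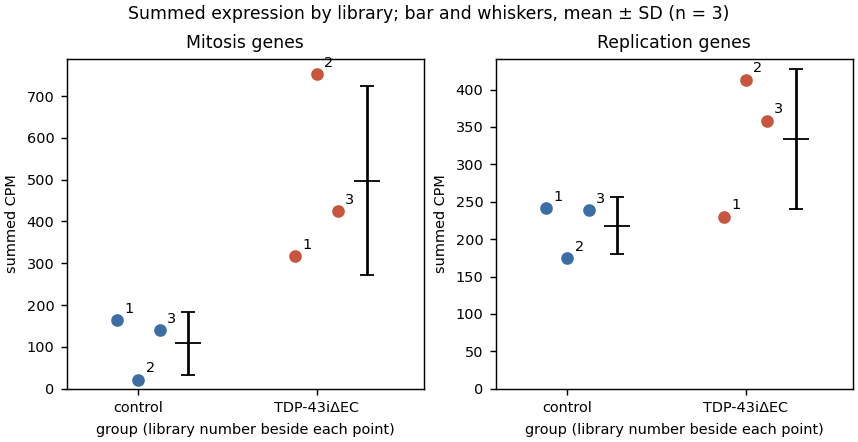
Summed CPM of the 22 mitosis genes (left) and the 13 replication genes (right) in each library, with library numbers beside the points and the mean ± SD of each group (n = 3). All 3 TDP-43iΔEC libraries lie above all 3 control libraries for mitosis genes, while TDP-43iΔEC 1, at 230 CPM, lies among the controls for replication genes.

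Set against each other within a library, the log2 ratio of summed mitosis to summed replication CPM was -0.56, -3.0 and -0.77 in control libraries 1, 2 and 3, and in the *TDP-43iΔEC* libraries it was 0.46, 0.86 and 0.24. The ratio was below 0 in every control library and above 0 in every *TDP-43iΔEC* library. CPM is not divided by gene length, so that the ratio compares libraries and not the abundance of the gene sets. The difference between group means was 1.96 on the log2 scale and 1.19 without control 2. Leaving out the gene with the highest level in each list gave 1.82. This ratio does not depend on how the libraries are scaled to each other.

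The median log2 fold change was 2.92 over the 22 mitosis genes, with 21 above 0, and 1.20 over the 12 replication genes tested, with 10 above 0, beside -0.015 over all genes tested. Without control 2 the medians were 1.35 and 0.52, with 17 of 22 and 7 of 12 above 0, beside -0.17 over all genes. Leaving out any single library gave 1.35 to 4.59 for mitosis genes and 0.52 to 1.73 for replication genes, the highest of each without *TDP-43iΔEC* 1. Without both control 2 and *TDP-43iΔEC* 2 they were 0.93 and 0.14, with 14 of 22 and 6 of 12 above 0. Over all genes tested the median was then -0.14, with 43.3% above 0. *Ccne1* was the 1 gene left untested, since its 194 counts all came from a single library.

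**Figure D2:**
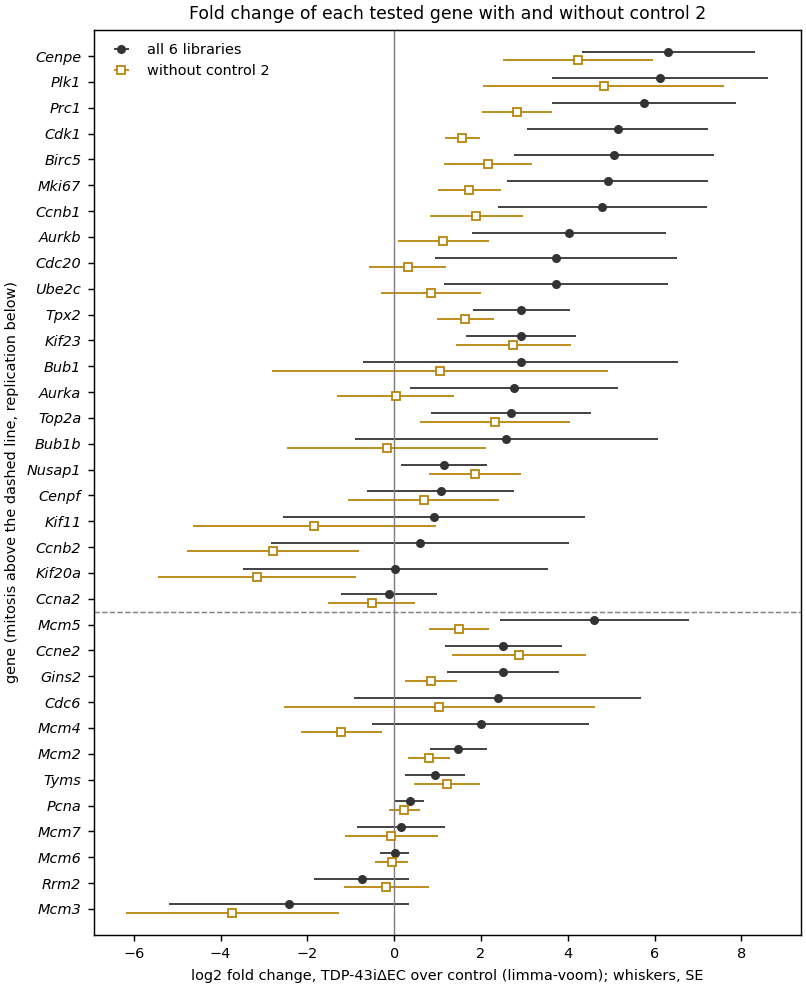
Log2 fold change of TDP-43iΔEC over control for the 34 genes tested, from limma-voom with all 6 libraries (filled circles) and without control 2 (open squares), with whiskers for the SE. Most mitosis genes lie to the right of 0, and most move toward 0 when control 2 is left out, Cdk1 from 5.15 to 1.57.

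Counts of 0 among these genes lay mostly in the control 2 library. In control 2, 16 of the 22 mitosis genes and 4 of the 13 replication genes had no count, while in the other 5 libraries 0 to 3 mitosis genes and 0 to 3 replication genes had none. Of the 34 genes tested, 55.9% were at 0 in control 2, against 12.1% of the 2302 genes with a mean level of 8.59 to 19.1 CPM, the middle of the members' distribution. In *TDP-43iΔEC* 1, 14.7% were at 0 against 3.34% of genes at that level. That range runs between the lower and upper quartiles of the 34 genes, so the match in level is approximate. *Cdc6* and *Plk1*, for instance, lie below it and *Pcna* and *Mcm6* above it. The mean level was taken over both groups. In control 2, 3 counts made up 0.0724 CPM. Because RNA was amplified before sequencing, a count of 0 does not bound the level in the cells. Of the 13 genes whose groups did not overlap, 7 were at 0 in control 2.

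**Figure D3:**
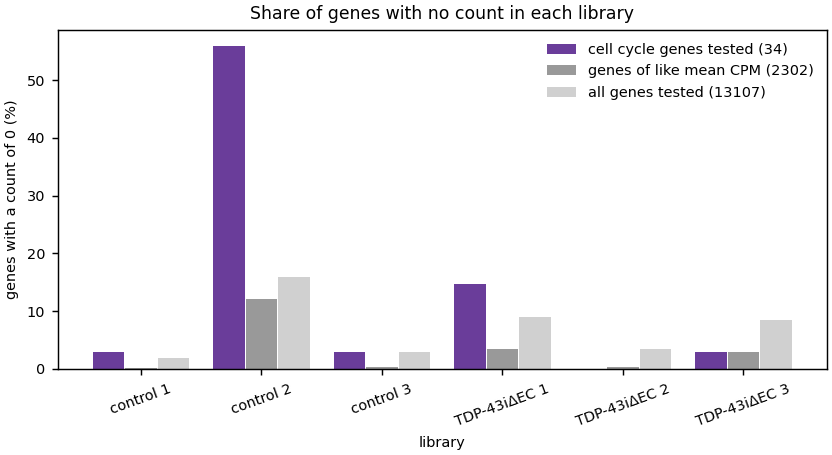
Share of genes with a count of 0 in each library, for the 34 cell cycle and replication genes tested, for 2302 genes with a mean level in the middle of the range of those genes, and for all 13107 genes tested. Control 2 stands out at 55.9% of the cell cycle and replication genes, and TDP-43iΔEC 2 has none at 0.

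**Figure D4:**
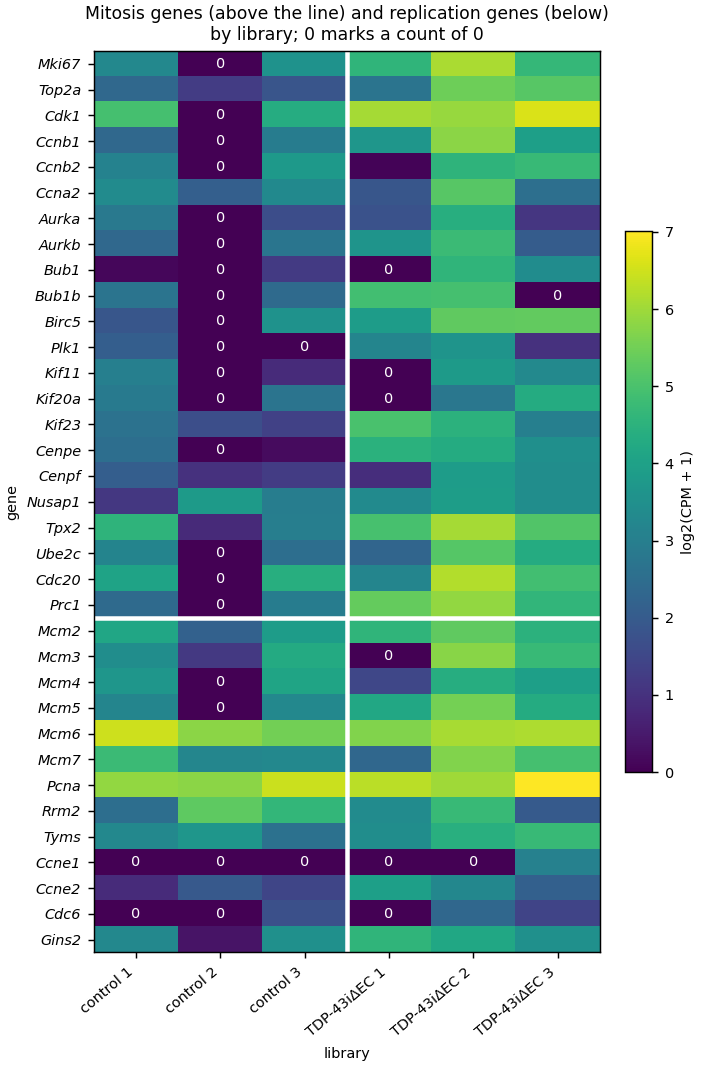
Expression of the 35 genes in each library as log2(CPM + 1), with mitosis genes above the horizontal line, replication genes below it, controls on the left and TDP-43iΔEC mice on the right. A 0 marks a gene with no count; the column of control 2 holds 20 of them, and Pcna and Mcm6 are high in all 6 columns.

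Among genes that start mitosis, *Cdk1*, the kinase that drives entry into mitosis, had 29.9, 0 and 19.1 CPM in control libraries 1, 2 and 3 and 66.2, 60.0 and 96.5 CPM in *TDP-43iΔEC* libraries 1, 2 and 3. Its lowest *TDP-43iΔEC* library was above its highest control library, its log2 fold change was 5.15 (SE 2.09, adjusted p = 0.513), and without control 2 it was 1.57. *Ccnb1*, which encodes the CDK1 partner cyclin B1, had 4.12, 0 and 6.74 CPM in controls and 11.7, 54.7 and 14.7 CPM in *TDP-43iΔEC* mice. Those groups also did not overlap, but 51.2% of the *Ccnb1* transcript sequence recurs in pseudogenes, among them *Ccnb1-ps*, so that its count is uncertain. *Ccnb2*, for cyclin B2, had 7.62, 0 and 12.5 CPM in controls and 0.041, 22.4 and 25.3 CPM in *TDP-43iΔEC* mice, so that the groups overlapped through *TDP-43iΔEC* 1. *Ccna2*, for cyclin A2, which acts in S phase and G2, had 9.37, 3.33 and 9.08 CPM in controls and 2.65, 35.7 and 4.86 CPM in *TDP-43iΔEC* mice. It was the 1 mitosis gene with a log2 fold change below 0 (-0.13, adjusted p = 0.982), and 2 of its 3 *TDP-43iΔEC* libraries lay below control 1 and control 3.

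*Plk1*, the Polo-like kinase of mitosis, had 3.29, 0 and 0 CPM in controls and 8.14, 11.4 and 1.00 CPM in *TDP-43iΔEC* mice. *Aurka*, the kinase of the spindle poles, had 6.06, 0 and 2.18 CPM in controls and 2.43, 19.8 and 1.16 CPM in *TDP-43iΔEC* mice. Its groups overlapped, and 38.6% of its exonic bases are also covered by genes on the other strand, whose reads this unstranded protocol cannot separate. *Aurkb*, the kinase of the chromosomal passenger complex, had 4.12, 0 and 5.66 CPM in controls and 11.3, 26.5 and 3.12 CPM in *TDP-43iΔEC* mice. *Birc5*, which encodes survivin of the same complex, had 2.68, 0 and 10.8 CPM in controls and 13.5, 38.2 and 39.1 CPM in *TDP-43iΔEC* mice. Of these 4 genes *Birc5* was the one whose groups did not overlap (log2 fold change 5.07, SE 2.30, adjusted p = 0.546, or 2.16 without control 2).

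The proliferation marker *Mki67* had 8.69, 0 and 11 CPM in controls and 23.1, 68.6 and 24.3 CPM in *TDP-43iΔEC* mice. Every *TDP-43iΔEC* library was above every control, with *TDP-43iΔEC* 2 far above the other two, and the log2 fold change was 4.92 (SE 2.31, adjusted p = 0.553), or 1.73 without control 2. *Top2a*, for the topoisomerase that untangles sister chromatids, had 4.17, 1.35 and 2.57 CPM in controls and 5.49, 43.4 and 35.1 CPM in *TDP-43iΔEC* mice. The groups did not overlap, but *TDP-43iΔEC* 1 was close to control 1, and this gene, called by DESeq2, had an adjusted p of 0.647 in limma and 0.435 in edgeR.

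Genes of the kinetochore and spindle checkpoint differed among themselves. *Cenpe*, a kinetochore motor, had 4.73, 0 and 0.16 CPM in controls and 21.0, 18.8 and 10.3 CPM in *TDP-43iΔEC* mice, without overlap, with a log2 fold change of 6.32 (SE 2.00, adjusted p = 0.395), or 4.23 without control 2. *Cenpf*, another kinetochore gene, had 3.24, 0.99 and 1.38 CPM in controls and 0.905, 13.5 and 9.87 CPM in *TDP-43iΔEC* mice. The checkpoint kinase gene *Bub1* had 0.093, 0 and 1.28 CPM in controls and 0, 22.8 and 9.56 CPM in *TDP-43iΔEC* mice. *TDP-43iΔEC* 1 was at or below the lowest control level for *Cenpf* and *Bub1* while it was the highest of all libraries for *Cenpe*. The checkpoint gene *Bub1b* had 5.50, 0 and 4.31 CPM in controls and 28.6, 29.8 and 0 CPM in *TDP-43iΔEC* mice, so that its single *TDP-43iΔEC* zero fell in another library.

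For spindle assembly, *Tpx2*, the activator of Aurora A on the spindle, had 22.7, 0.773 and 6.99 CPM in controls and 30.0, 66.2 and 33.2 CPM in *TDP-43iΔEC* mice. It did not overlap between groups, was present in every library, and had a log2 fold change of 2.93 (SE 1.11, adjusted p = 0.487), or 1.64 without control 2. *Kif11*, the kinesin that pushes spindle poles apart, had 7.08, 0 and 0.825 CPM in controls and 0, 13.2 and 8.79 CPM in *TDP-43iΔEC* mice. *Nusap1*, a spindle-associated protein gene, had 1.21, 13.2 and 6.79 CPM in controls and 9.21, 13.9 and 9.83 CPM in *TDP-43iΔEC* mice. *Nusap1* was the mitosis gene whose highest control was control 2, and without that library its groups did not overlap.

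Genes of late mitosis and cytokinesis also differed among themselves. *Prc1*, which bundles microtubules of the spindle midzone, had 4.40, 0 and 6.65 CPM in controls and 39.7, 57.9 and 23.6 CPM in *TDP-43iΔEC* mice. *Kif23*, a kinesin of the same structure, had 5.24, 2.20 and 1.54 CPM in controls and 30.7, 21.8 and 7.21 CPM in *TDP-43iΔEC* mice. Both pairs of groups did not overlap, with log2 fold changes of 5.76 (SE 2.11, adjusted p = 0.471) and 2.92 (SE 1.27, adjusted p = 0.536), and without control 2 they were 2.83 and 2.75. *Kif20a*, another cytokinesis kinesin, had 6.32, 0 and 5.46 CPM in controls and 0, 5.88 and 18.9 CPM in *TDP-43iΔEC* mice, with a log2 fold change of 0.03. For *Kif20a*, 61.5% of exonic bases are shared with genes on the other strand. *Cdc20*, the coactivator of the anaphase-promoting complex, had 15.7, 0 and 19.8 CPM in controls and 8.14, 72.7 and 28.7 CPM in *TDP-43iΔEC* mice. *Ube2c*, its ubiquitin-conjugating enzyme, had 7.88, 0 and 4.79 CPM in controls and 3.87, 34.7 and 18.8 CPM in *TDP-43iΔEC* mice. Both overlapped through *TDP-43iΔEC* 1, which lay below control 1 and control 3.

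Over the 22 mitosis genes the highest library was never a control. It was *TDP-43iΔEC* 2 for 16 genes, *TDP-43iΔEC* 3 for 4 and *TDP-43iΔEC* 1 for 2. For the replication genes the highest library was a control for 2 of 13, *Mcm6* (control 1) and *Rrm2* (control 2).

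Replication genes divided into abundant genes of like level and scarcer genes. Per kilobase of exon, *Pcna*, which encodes the sliding clamp of DNA polymerases, and *Mcm6* had the highest mean levels in controls of all 35 genes, 27.5 and 11.5 CPM per kb, beside a median of 0.914 CPM per kb over the 35. *Pcna* had 57.8, 54.4 and 85.5 CPM in controls and 76.8, 63.1 and 128 CPM in *TDP-43iΔEC* mice, a log2 fold change of 0.36 (SE 0.33, adjusted p = 0.733). The groups overlapped, and 51.4% of its transcript sequence recurs in *Pcna-ps2*. *Mcm6*, a subunit of the MCM helicase, had 88.0, 54.3 and 44.3 CPM in controls and 50.4, 67.6 and 69.4 CPM in *TDP-43iΔEC* mice, a log2 fold change of 0.01 (SE 0.34, adjusted p = 0.996).

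The other helicase subunits did not share the level of *Mcm6*. *Mcm2* had 16.7, 3.53 and 13.6 CPM in controls and 23.0, 38.1 and 21.5 CPM in *TDP-43iΔEC* mice, and *Mcm5* had 8.16, 0 and 8.67 CPM against 17.4, 45.9 and 18.9 CPM. Both were higher in every *TDP-43iΔEC* library, with log2 fold changes of 1.47 (SE 0.66, adjusted p = 0.541) and 4.62 (SE 2.18, adjusted p = 0.555), or 0.80 and 1.5 without control 2. *Mcm3* had 9.83, 1.23 and 18.4 CPM in controls and 0, 53.1 and 25.5 CPM in *TDP-43iΔEC* mice. Its mean in *TDP-43iΔEC* mice was 2.67 times the control mean while its log2 fold change in limma was -2.43 (SE 2.76), since limma averages logarithms and the zero in *TDP-43iΔEC* 1 outweighs the high values. *Mcm4* had 11.8, 0 and 15.9 CPM in controls and 1.83, 19.7 and 14.5 CPM in *TDP-43iΔEC* mice, and *Mcm7* had 26.5, 8.23 and 8.67 CPM against 4.07, 50.5 and 29.6 CPM. *TDP-43iΔEC* 1 was lowest of the *TDP-43iΔEC* libraries for *Mcm3*, *Mcm4*, *Mcm5*, *Mcm6* and *Mcm7*, and 76.1% of the *Mcm7* transcript sequence recurs in other annotated genes.

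Of the genes that load and start the helicase, *Gins2*, a subunit of the GINS complex, had 8.69, 0.29 and 10.4 CPM in controls and 22.9, 17.1 and 10.5 CPM in *TDP-43iΔEC* mice. The groups met almost exactly between control 3 and *TDP-43iΔEC* 3, and 67.3% of the exonic bases of *Gins2* overlap *Gse1* on the other strand. *Cdc6*, a licensing factor of replication origins, had 0, 0 and 2.25 CPM in controls and 0, 4.11 and 1.70 CPM in *TDP-43iΔEC* mice. *Ccne2*, for cyclin E2, had 0.816, 2.90 and 1.77 CPM in controls and 14.6, 8.54 and 3.39 CPM in *TDP-43iΔEC* mice, without overlap, with a log2 fold change of 2.51 (SE 1.35, adjusted p = 0.585) and 2.87 without control 2. *Ccne2* was the 1 gene of the 13 without overlap whose difference was larger when control 2 was left out. *Ccne1*, for cyclin E1, had 7.48 CPM in *TDP-43iΔEC* 3 and no count in the other 5 libraries.

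The enzymes of nucleotide supply did not move together. *Tyms*, for thymidylate synthase, had 8.67, 11.7 and 5.14 CPM in controls and 9.75, 20.4 and 25.5 CPM in *TDP-43iΔEC* mice, and its groups were separate only without control 2. *Rrm2*, a subunit of ribonucleotide reductase, had 4.78, 37.7 and 24.0 CPM in controls and 9.38, 25.1 and 2.93 CPM in *TDP-43iΔEC* mice. It was the 1 gene of the 35 with a lower mean in *TDP-43iΔEC* mice, 0.563 of the control mean, and its highest library was control 2, in which 20 of the other genes were at 0. Without control 2 its ratio was 0.868, and 3 genes, *Rrm2*, *Mcm4* and *Mcm6*, had a lower mean in *TDP-43iΔEC* mice.

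Genes of the same pathways outside the 35 were counted from 5 further lists, none of which had a gene past the threshold in limma. Of 33 other replication genes tested, 25 had a log2 fold change above 0, with a median of 0.58, and 6 were higher at an unadjusted p under 0.05 and 0 lower, against 4.26% and 5.0% of all genes tested. Without control 2, 36 genes of this list were tested, the median was 0.35 and 1 was higher at that p, against 2.69% of all genes tested. With all libraries edgeR had 0, against 2.72%. *Pole*, the catalytic subunit of DNA polymerase epsilon, had 0.629, 0 and 0 CPM in controls and 10.9, 11.4 and 1.00 CPM in *TDP-43iΔEC* mice. *Gins1*, a partner of *Gins2*, had 0.722, 0 and 0 CPM against 4.69, 3.05 and 2.20 CPM. The log2 fold changes of *Pole* and *Gins1* in limma were 7.13 and 6.19, or 6.22 and 5.23 without control 2. In edgeR, with all libraries, they were 5.19 and 3.76. *Tk1*, for thymidine kinase, had 6.94, 0 and 3.14 CPM against 25.2, 27.7 and 17.5 CPM, again without overlap (adjusted p = 0.483, and 0.445 without control 2).

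Of 31 other mitosis genes tested, 23 were above 0 with a median of 2.09. At an unadjusted p under 0.05, 7 were higher and 2 lower, against 4.26% and 5.0% of all genes tested. Without control 2, 35 genes of this list were tested, the median was 0.97, and 1 was higher and 1 lower at that p. The shares over all genes tested were then 2.69% and 6.46%. With all libraries edgeR had 2 higher and 2 lower at an unadjusted p under 0.05, while 2.72% of all genes tested were higher. *Nuf2*, of the kinetochore complex that binds microtubules, had 3.12, 0 and 0 CPM in controls and 13.6, 10.9 and 6.56 CPM in *TDP-43iΔEC* mice (log2 fold change 7.18, SE 2.16, adjusted p = 0.370, or 5.82 without control 2). *Cep55*, which acts in the final cut of cytokinesis, had 4.94, 0 and 0 CPM against 6.75, 8.80 and 10.8 CPM. Its log2 fold change in limma was 6.50, or 5.10 without control 2, while its ratio of mean CPM was 5.33. In edgeR the log2 fold changes of *Nuf2* and *Cep55* were 3.31 and 2.41. Both genes had a count of 0 in controls 2 and 3, which weighs on the logarithms that limma averages. *Ncaph*, a subunit of condensin, went the other way without overlap, with 115, 139 and 131 CPM in controls and 73.3, 89.2 and 57.7 CPM in *TDP-43iΔEC* mice (log2 fold change -0.81, SE 0.24, adjusted p = 0.370). The other gene lower at that p was *Pttg1*, for the separase inhibitor securin, with 84.4, 84.8 and 74.6 CPM against 61.0, 38.9 and 53.9 CPM. DESeq2 called *Spc25*, a partner of *Nuf2* (adjusted p = 0.0021, limma adjusted p = 0.511), and *Pttg1* and *Spc25* were named here after their values were seen. For *Spc25*, 52.5% of exonic bases are shared with *Nostrin* on the other strand, so that its count is uncertain.

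Upstream of these genes, all 10 G1 cyclin and kinase genes were tested, with 8 above 0 and a median of 0.41. At an unadjusted p under 0.05, 2 were higher, against 4.26% of all genes tested. Without control 2, 6 were above 0 with a median of 0.18, and 0 had an unadjusted p under 0.05 in limma. Over all genes tested, 2.69% were then higher and 6.46% lower at that p. *Ccnd1*, for cyclin D1, had 230, 198 and 203 CPM in controls and 255, 337 and 278 CPM in *TDP-43iΔEC* mice, a log2 fold change of 0.44 (SE 0.18, adjusted p = 0.513). *Ccnd2*, for cyclin D2, had 138, 104 and 101 CPM against 155, 162 and 187 CPM, a log2 fold change of 0.55 (SE 0.22, adjusted p = 0.498). *Cdk6*, whose kinase both cyclins activate, had 20.1, 9.15 and 28.3 CPM against 30.8, 36.2 and 52.6 CPM. These 3 of the 10 genes had every *TDP-43iΔEC* library above every control library, against 7.40% of all genes tested. For *Ccnd1*, 48.4% of exonic bases are shared with a gene on the other strand. The other 7 genes of the list overlapped between groups. Among them *Ccnd3*, for cyclin D3, had 358, 230 and 185 CPM against 348, 422 and 212 CPM, and *Cdk4* had 90.7, 85.8 and 111 CPM against 135, 154 and 76.5 CPM, both added after their values were seen.

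Of 7 CDK inhibitor genes tested, 3 were above 0 and 4 below, with a median of -0.38, and without control 2 the counts were 1 and 6 and the median -1.09. *Cdkn2b*, for p15INK4b, an inhibitor of CDK4 and CDK6, had 125, 57.9 and 124 CPM in controls and 2.26, 12.2 and 7.10 CPM in *TDP-43iΔEC* mice. Its highest *TDP-43iΔEC* library was well below its lowest control, with a log2 fold change of -4.36 (SE 1.10, adjusted p = 0.287) and -4.72 without control 2 (adjusted p = 0.0859). *Cdkn2b* was called by DESeq2 (adjusted p = 8.4e-07) and not by edgeR (adjusted p = 0.220). The related *Cdkn2c* had 5.62, 6.45 and 9.15 CPM against 0, 3.53 and 6.63 CPM, and *Cdkn1a*, for the p53 target p21, had 484, 528 and 346 CPM against 499, 462 and 714 CPM, both with overlap. The mean of *Cdkn1a* was 453 CPM in controls and 558 CPM in *TDP-43iΔEC* mice, that of *Cdkn2b* was 102 and 7.18 CPM, and the summed level of CDK inhibitors was 629 ± 65.9 CPM in controls and 629 ± 135 CPM in *TDP-43iΔEC* mice (SD, n = 3 each).

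**Figure D5:**
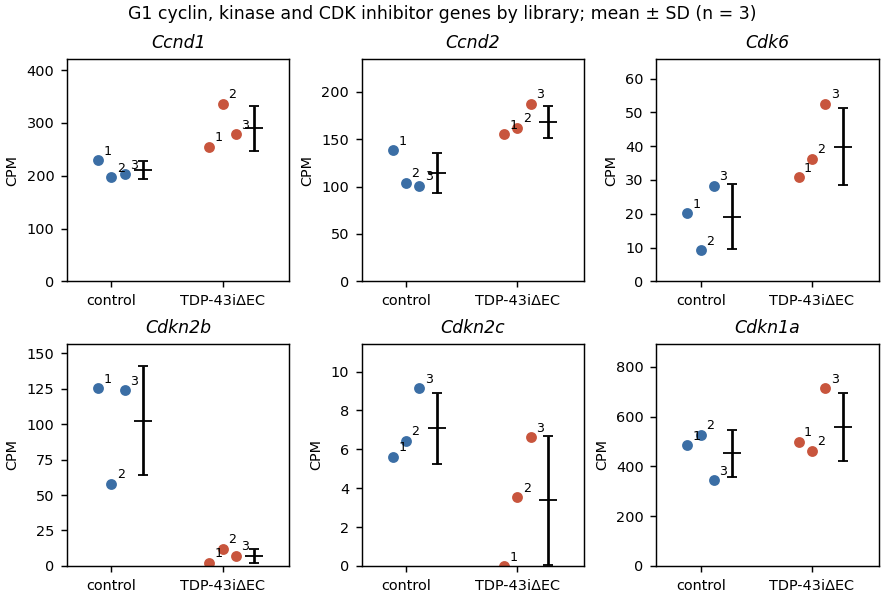
CPM of 2 D-type cyclin genes, Cdk6 and 3 CDK inhibitor genes in each library, with library numbers beside the points and the mean ± SD of each group (n = 3). Ccnd1, Ccnd2 and Cdk6 lie higher in all TDP-43iΔEC libraries, Cdkn2b lies between 2.26 and 12.2 CPM there against 57.9 to 125 CPM in controls, and Cdkn1a overlaps.

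Among 18 regulators of E2F, RB and MuvB tested, 12 were above 0 with a median of 0.40, while 11 of 19 were above 0 without control 2, with a median of 0.19. *Tfdp2*, a dimer partner of E2F proteins, was lower without overlap, with 44.4, 78.5 and 81.6 CPM in controls and 26.6, 37.7 and 29.9 CPM in *TDP-43iΔEC* mice (log2 fold change -1.11, SE 0.38, adjusted p = 0.454). *Myc* had 14, 0 and 12.5 CPM against 18.2, 24.4 and 35.3 CPM without overlap (log2 fold change 4.14, or 0.83 without control 2), and *Rb1* had 6.50, 0 and 16.1 CPM against 21.3, 9.41 and 4.90 CPM with overlap. Control 2 again held the zeros of the latter genes.

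Of the 20 genes with a CHR in their promoter window, 10 had every *TDP-43iΔEC* library above every control library and the median log2 fold change of those tested was 3.72, while of the 8 genes without a CHR match, 0 did and the median was 0.64. Over all genes tested the share was 7.40%. By the other motifs, 9 of 23 genes with a CCAAT box and 1 of 5 without did, and 2 of 6 genes with an E2F match and 8 of 22 without did. The count of 0 among genes without a CHR depends on the window. *Kif23* and *Cenpe*, both among the 10 genes with a CHR and no overlap, hold their only CHR match after the annotated start. A window ending at the start would place both among the genes without a CHR. Most genes with a CHR are mitosis genes, so that the element and the list cannot be told apart here.

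Markers of other cell types were summed in the same libraries. Those of oligodendrocyte precursors summed to 17.9, 26.8 and 16.9 CPM in controls and to 22.4, 19.2 and 0.81 CPM in *TDP-43iΔEC* mice. In *TDP-43iΔEC* 3, 4 of the 5 markers of these precursors were at 0. The 5 markers did not move together. *Pdgfra* was at 0 in all *TDP-43iΔEC* libraries and in control 2, and *Olig1* was lower in every *TDP-43iΔEC* library. *Cspg4* had 8.37, 12.6 and 6.33 CPM in controls and 16.8, 18.9 and 0 CPM in *TDP-43iΔEC* mice. *Sox10* was highest in *TDP-43iΔEC* 1, and *Olig2* overlapped between groups. Microglia and leukocyte markers summed to at most 1.61 CPM in any library, with 2 to 5 of the 5 at 0. The antibodies the study lists for sorting are to CD31, CD45 and the erythroid antigen TER-119. Erythroid markers, 5 or 6 of 6 detected, summed to 6935 to 10578 CPM in controls and 2034 to 2884 CPM in *TDP-43iΔEC* mice. Oligodendrocyte markers summed to 301 to 603 CPM in controls and 14.7 to 491 CPM in *TDP-43iΔEC* mice, with 2 of the 4 at 0 in *TDP-43iΔEC* 2 and 3, and mural cell markers to 524 to 955 CPM and 424 to 956 CPM. Fibroblast markers summed to 12.6 to 39.8 CPM, astrocyte markers to 0 to 25.6 CPM and neuronal markers to 0.275 to 9.56 CPM over all libraries. The part of the precursor, erythroid and oligodendrocyte differences in these results was not tested. With all libraries thinned to 25704871 counts, the depth of the smallest, the medians were 3.27 for mitosis and 1.31 for replication genes.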

How the data were processed

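ECs were sorted from P16 spinal cords, and RNA was amplified with an unstranded, oligo-dT-primed SMART-seq2 protocol. The authors aligned reads to GRCm39 with STAR 2.7.8a and quantified GENCODE M30 genes with RSEM 1.3.0, and the deposited expected counts were whole numbers. Groups and library numbers came from the labels. Low counts were removed with filterByExpr, counts were scaled by TMM, and groups were compared by limma-voom (limma 3.58.1, edgeR 4.0.16, R 4.3.3) with Benjamini-Hochberg adjustment over 13107 genes; limma-voom is the test in the study's methods, while the filter and TMM were chosen here. CPM used TMM-scaled library sizes. edgeR's quasi-likelihood test, DESeq2 1.42.0, other scalings and filters, thinning and leaving out libraries were alternatives. Fitting was tested on simulated data. All 35 genes were described; in each further list, the 3 genes with the lowest p were named. Genes and lists were chosen with earlier results of these data known. Shared and overlapping sequence was measured on GENCODE M39. Motifs were searched on both strands. The labels number libraries and do not say that each is a separate mouse, so p-values measure the spread between these samples.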

Additional observations from a re-analysis of the deposited data

How the results depend on the processing

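With 3 libraries a group and SEs up to 3.62 on the log2 scale, single genes at low counts were not resolvable, and 16 mitosis genes at 0 in control 2 enter the fold changes of those genes. Over 18 alternatives, none of the 35 genes passed the threshold except *Top2a* in DESeq2 (1 gene, log2 fold change 3.42). The 18 genes past the threshold among all genes became 0 with edgeR, 250 with DESeq2, 10 with library size alone, 40 with quantile normalization, 76 without a filter, 39 with at least 10 counts in every library, 8 with limma trend and 0 without control 2 and *TDP-43iΔEC* 2 (the last pair chosen after seeing the data), and 0 to 13 when any library was left out. Scaling by library size alone moved the median of all genes to 0.18. *Tardbp* passed in DESeq2 (-1.65), and *Cdkn2b* in DESeq2 and with at least 10 counts in every library, giving 1 CDK inhibitor in each, and *Spc25* gave 1 other mitosis gene in DESeq2. Without control 2 and *TDP-43iΔEC* 2, the median of the replication genes was 0.14. A CHR lay in 66.7% of mitosis promoters with only the 250 bases before the start.

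Library numbers did not pair the libraries: deviations of same-numbered libraries correlated at -0.044, -0.064 and 0.011. With the replicate block, 0 of the 35 genes and 22 of all genes passed, and 3 of the 35 had an unadjusted p under 0.05.

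The log2 fold change changed sign in at least 1 alternative for 13 genes, none of them past the threshold, and kept it in all for 21. *Ccna2* was 0.99 with edgeR, 1.04 with DESeq2, 0.0602 with library size, 0.00268 with sample weights, 0.16 with at least 10 counts, 1.14 with the block, 0.27 thinned and 0.24 with limma trend. *Mcm3* was 1.42 with edgeR, 1.47 with DESeq2 and 1.20 with the block. With sample weights, *Ccnb2* was -0.97, *Kif11* -0.062, *Kif20a* -1.36 and *Mcm4* -0.00297. Without a filter, *Kif20a* was -0.044 and *Mcm6* -0.014, and *Mcm6* was -0.057 with the block. Without control 2 and *TDP-43iΔEC* 2, *Ccnb2* was -3.72, *Aurka* -1.01, *Bub1* -0.78, *Bub1b* -2.07, *Kif11* -3.54, *Kif20a* -4.38, *Cdc20* -0.47, *Mcm4* -1.93, *Mcm6* -0.13, *Mcm7* -0.89 and *Cdc6* -0.64. When any library was left out, *Mcm7* ranged from -0.76 to 1.67, *Mcm6* from -0.21 to 0.29, *Ccna2* from -1.01 to 1.15, *Ccnb2* from -2.78 to 4.45, *Kif11* from -1.84 to 4.72, *Kif20a* from -3.16 to 3.69, *Bub1b* from -0.18 to 5.45, *Mcm4* from -1.22 to 3.84 and *Mcm3* from -3.88 to 2.59. The causes were not tested.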
